A study of Mus musculus with 9 samples.

Results

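Tenascins, thrombospondins and related matricellular glycoproteins were followed in adipose stromal cells (ASCs) of the mouse mammary gland, with 10 member genes of the 19930 genes measured. The members are Tnc, Tnxb, Thbs1, Thbs2, Thbs3, Thbs4, Postn, Sparc, Fn1 and Sned1. They were chosen by their protein families and on their log2 signals at the 3 stages of the study, from probe sets annotated to exactly 1 gene symbol, so their differences between stages are given as a description with no test. Each member is measured by 1 probe set of an Affymetrix Mouse Gene 1.0 ST array, whose probes lie along the whole transcript.

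The 9 arrays hold 3 preparations from each of 3 groups of female Balb/c mice, for which the labels name no transgene and no treatment. The groups were nulliparous mice of 8 weeks that had not been housed with males (ASC-Ns), lactating mice on day 5 (ASC-Ls) and, once nursing had ended, involuting mice on day 3 (ASC-Is). Single arrays are named by stage and replicate number, such as ASC-L 2. The bred mice had been mated at 8 weeks of age and so were older than the nulliparous mice when sampled. Stage and age cannot be told apart in the comparisons with ASC-Ns. The labels describe stroma freed from the gland by enzyme digestion and centrifugation, the paper's methods describe low passage cultures of it, and neither says which mice stand behind each array.

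Matricellular proteins are secreted into the extracellular matrix, where they bind cells, growth factors, proteases and structural fibers rather than forming the fibers themselves. Many act through integrins, and several are known for high expression in wounds, remodeling tissue and tumor stroma. Fibronectin is the exception here, since it does form fibers, on which tenascin C and periostin assemble.

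The largest stage difference among the members was that of Sned1, a secreted glycoprotein of the matrix. Its signal was 2.43-fold lower in ASC-Ls and 1.83-fold lower in ASC-Is than ASC-Ns, and no ASC-L or ASC-I array reached the lowest ASC-N array. The ASC-L signals of Sned1 lay near the median of all genes, and whether it was detected there was not tested. Tnc was 1.63-fold higher in ASC-Ls than ASC-Ns, while Thbs3 was 1.57-fold lower. The other 7 members, among them Thbs1, Sparc and Fn1, differed by less than 1.5-fold between any of the stages.

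The 3 members with these differences are shown with the bases that precede their start sites in RefSeq, on build GRCm38.p6. Capitals mark matches on either strand to the motifs TATAAA, to CCAAT and to GGGCGG. Of the 10 members, 8 had such a window of 250 bases, and Thbs1 and Fn1 are named only. The Sned1 window, chr1:93235647-93235896 on the plus strand, runs into the annotated gene, so the 149 bases outside it are printed. The Thbs3 window is chr3:89214930-89215179 on the plus strand. The Tnc window, chr4:64047016-64047265 on the minus strand, lies within the span of the noncoding gene 8030451A03Rik.
Sned1: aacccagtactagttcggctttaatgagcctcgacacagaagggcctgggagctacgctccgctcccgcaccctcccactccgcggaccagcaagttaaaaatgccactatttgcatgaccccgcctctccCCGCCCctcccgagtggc
Thbs3: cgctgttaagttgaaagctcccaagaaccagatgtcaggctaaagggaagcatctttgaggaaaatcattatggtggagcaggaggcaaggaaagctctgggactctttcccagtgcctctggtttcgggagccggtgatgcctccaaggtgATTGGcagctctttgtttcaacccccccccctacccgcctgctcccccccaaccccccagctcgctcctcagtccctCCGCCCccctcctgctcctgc
Tnc: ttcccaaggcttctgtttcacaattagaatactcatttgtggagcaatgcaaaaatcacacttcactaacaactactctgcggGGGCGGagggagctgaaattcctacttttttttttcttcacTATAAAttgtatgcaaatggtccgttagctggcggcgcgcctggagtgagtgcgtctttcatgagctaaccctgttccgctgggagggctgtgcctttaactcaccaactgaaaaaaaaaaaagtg
GC content was 64% in the whole Sned1 window, 58.8% in that of Thbs3 and 44.8% in that of Tnc. All 3 windows held 1 match to GGGCGG, which 32.7% of 32851 such windows hold on either strand. It lay 119 to 114 bases before the start in Sned1 and 21 to 16 bases before it in Thbs3, both on the strand opposite to the gene, and 167 to 162 bases before it in Tnc. The start of Sned1 in this count follows the whole window, past the 149 printed bases and inside the annotated gene. The CCAAT match of Thbs3 lay at 98 to 94 bases on the opposite strand, and the TATAAA match of Tnc at 126 to 121 bases, with such matches in 33.8% and 12.4% of all windows. None of the 3 windows held TGANTCA, found in 6.75% of all windows, or AGGTCA, found in 14% of them, or a CArG box, found in 1.47%. No 2 of these motifs overlapped in the windows shown, and a match is a description of letters only.

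The values analyzed are log2 signals as deposited, and differences between stages are on this scale. All 9 arrays and all 19930 genes entered 1 linear model in limma, which gave each stage its own mean. A gene is said to be past the limits at an unadjusted p under 0.05 together with a difference of 1.5-fold or more. For the members these limits only describe the size of a difference beside the spread of the arrays and are no test. Of the 10 members 3 were past the limits for ASC-L against ASC-N, namely Sned1, Thbs3 and Tnc, where 0.627% of all genes were (0.171% higher and 0.457% lower in ASC-Ls). For ASC-I against ASC-N 1 of 10, Sned1, was past the limits, with 0.251% of all genes (0.181% lower in ASC-Is), and for ASC-L against ASC-I 0 of 10 were, with 0.482% of all genes. With the replicate number as a block, for ASC-L against ASC-I 207 genes and 0 members were past the limits, against 96 genes without it. The arrays of the stages did not overlap for 2, 1 and 0 members in these comparisons, and for 8.59%, 6.54% and 5.56% of all genes. At an adjusted p under 0.05 limma called 0 of 19930 genes (0%) in each comparison, and 726, 311 and 359 genes (3.64%, 1.56% and 1.8%) had an unadjusted p under 0.05. Nothing is read from the counts of members against these shares, since the members were chosen on the same stages.

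**Figure D1:**
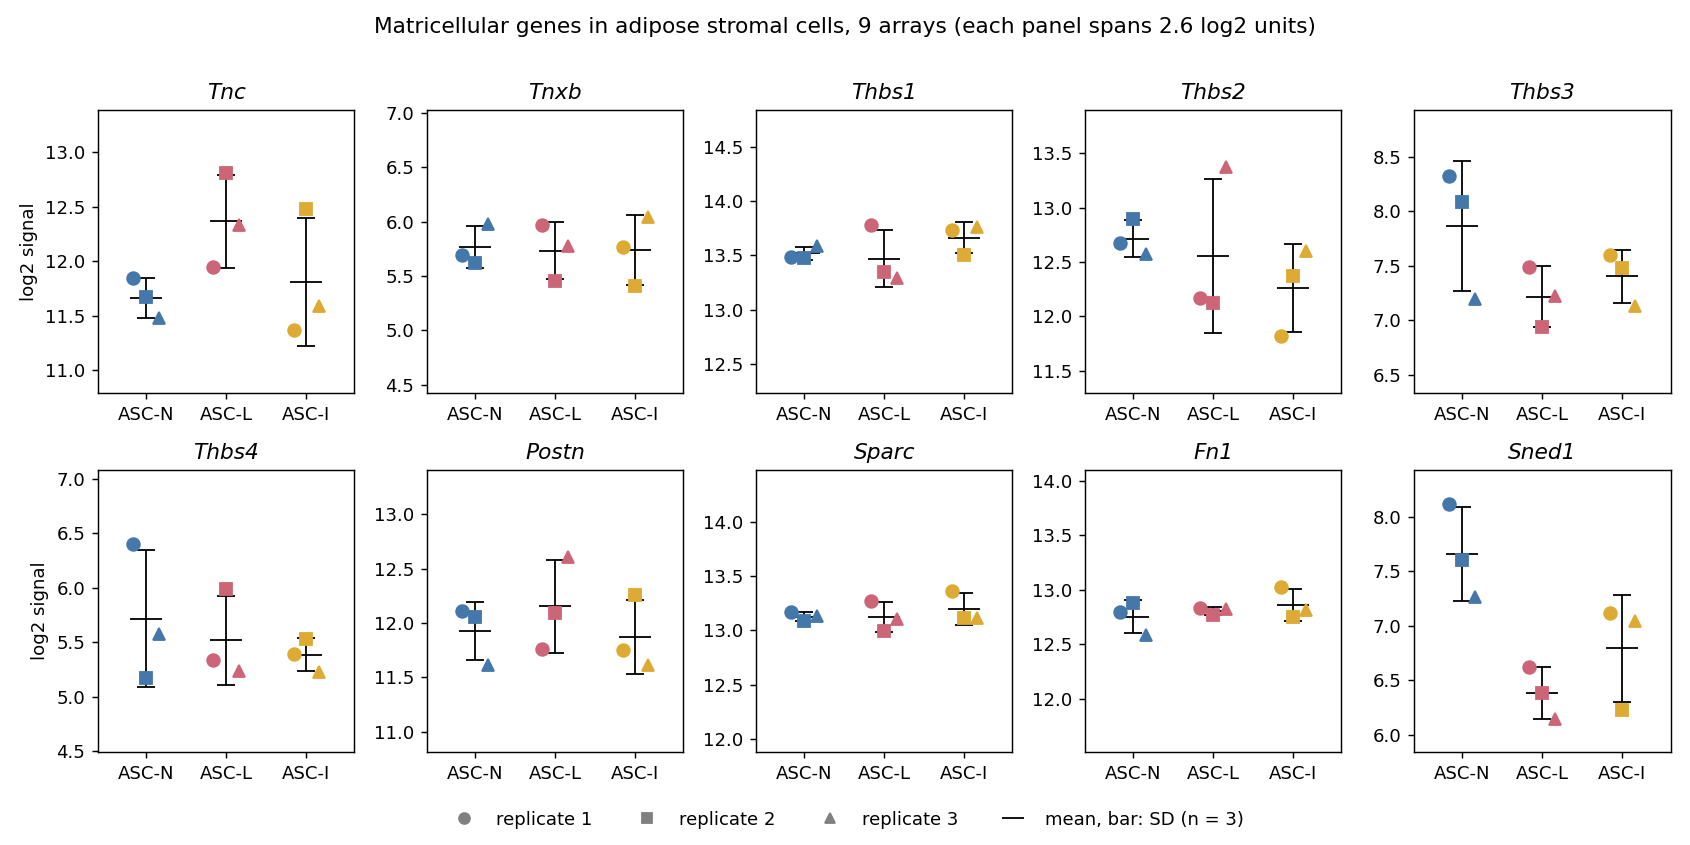
Log2 signal (vertical axis) of the 10 members in ASC-Ns, ASC-Ls and ASC-Is, with 1 point per array, the shape giving the replicate number, and a line and bars for the mean and SD (n = 3). Every panel spans the same number of log2 units. All ASC-L and ASC-I arrays of Sned1 lie below the lowest ASC-N array at 7.26, and Tnc is highest in replicate 2 of ASC-Ls (12.81) and of ASC-Is (12.48).

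Markers of other cell types differed between the arrays. Markers of adipose stroma, such as Col1a1 and Dcn, had a mean log2 signal between 9.54 and 10.5 in every array (11 markers, of which 1, Pdgfra, was past the limits for ASC-L against ASC-N, at -1.22), whereas 7 adipocyte markers lay between 5.59 and 6.01. Of the adipocyte markers 1, Pparg, a nuclear receptor of fat cell formation, was past the limits for ASC-L against ASC-N (-0.96) and for ASC-I against ASC-N (-0.83), with no overlap of the arrays in either comparison. Of all genes 0.627% and 0.251% were past the limits and 8.59% and 6.54% did not overlap in these comparisons. For 11 luminal epithelial markers the mean was 9.24 in ASC-L 2 and 7.87 in ASC-I 2, and from 5.70 to 7.05 in the other arrays. In the same 2 arrays 6 basal markers had means of 9.28 and 7.29, against 4.86 to 5.98 elsewhere. The mean of 12 macrophage markers was 8.39, 8.35 and 6.16 in ASC-Ns, 6.91, 6.64 and 6.52 in ASC-Ls, and 9.11, 7.25 and 7.85 in ASC-Is. Across genes, which are not independent replicates, arrays of a stage correlated with r from 0.960 to 0.991, and array medians lay between 5.928 and 6.005. Fewer cells of a type and less RNA per cell cannot be told apart in these bulk values.

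Tenascins are large glycoproteins built of repeats related to EGF and fibronectin. Tnc encodes tenascin C, which weakens the adhesion of cells to fibronectin and is abundant in remodeling and tumor stroma. The gene lies at chr4:63959785-64047015. The log2 signal of Tnc was 11.84, 11.67 and 11.48 in ASC-Ns, 11.95, 12.81 and 12.34 in ASC-Ls, and 11.36, 12.48 and 11.59 in ASC-Is. The lowest ASC-L array lay 0.11 above the highest ASC-N array, while the ASC-I arrays overlapped with both, since ASC-I 1 was the lowest of all 9 arrays and ASC-I 2 the second highest. The means were 11.66 ± 0.18, 12.37 ± 0.43 and 11.81 ± 0.59 (SD, n = 3 each). The difference was 0.70 for ASC-L against ASC-N (standard error 0.30), 0.55 for ASC-L against ASC-I and 0.15 for ASC-I against ASC-N. Arrays of the same replicate number differed by 0.59, 0.33 and 0.75 for ASC-L against ASC-I.

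Much of the spread in Tnc lay in the arrays with high epithelial markers. All 11 luminal and all 6 basal markers had higher stage means in ASC-Ls than ASC-Ns, where 48.3% of all genes were lower. Of these markers 1, Elf3, was past the limits, as were 0.627% of all genes. In ASC-L 1 and ASC-L 3 the luminal means were 5.94 and 6.21, and the basal means 5.15 and 5.46. In ASC-N 1, 2 and 3 the luminal means were 7.05, 7.03 and 5.70, and the basal means 5.98, 5.90 and 4.86. All 6 measured milk protein genes were also higher, of which 1, Wap, was past the limits (0.81) and 3 did not overlap, as did 8.59% of all genes. Their mean was 6.65 in ASC-L 2, 5.51 in ASC-I 2 and at most 4.66 elsewhere. The mean of 6 endothelial markers was 7.43 in ASC-L 2, 6.66 in ASC-I 2 and 7.16 in ASC-N 1, and at most 5.44 elsewhere. That of 8 pericyte and smooth muscle markers was highest in the same arrays (9.68, 9.38 and 9.45). Tnc in ASC-L 2 was 0.67 above its mean in the other ASC-L arrays, and in ASC-I 2 it was 1.00 above its mean in the other ASC-I arrays. Without both of these arrays the difference for ASC-L against ASC-N was 0.48, no longer past the limits, and that for ASC-L against ASC-I was 0.67, past them. The part of other cell types in the signal of Tnc was not tested. The difference for ASC-L against ASC-N was also no longer past the limits when ASC-N 1, 2 or 3 was left out (0.79, 0.71 and 0.61), without ASC-L 2 or 3 (0.48 and 0.72) and without ASC-I 3 (0.70), and also under array weights (0.50) and when the genes of the lowest 25% of mean signal were left out (0.70). For ASC-L against ASC-I the difference passed the limits without ASC-L 1, where it was 0.76, and without ASC-I 2, where it was 0.89.

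Tnxb encodes tenascin X, which organizes collagen fibrils in loose connective tissue (chr17:34660453-34719815). Its signal lay between 5.40 and 6.05 in all 9 arrays, about the median of the arrays, and whether it was detected was not tested. The stage means of Tnxb were 5.77 ± 0.19, 5.73 ± 0.26 and 5.74 ± 0.32 (SD, n = 3 each) in ASC-Ns, ASC-Ls and ASC-Is. They differed by at most 0.03 with a standard error of 0.20, and the arrays of the stages overlapped. The range over the 9 arrays was 1.45 for Tnc and 0.64 for Tnxb.

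Thrombospondins fall into a trimeric subgroup, Thbs1 and Thbs2, and a pentameric subgroup with Thbs3, Thbs4 and Comp. Thbs1 encodes thrombospondin 1, which activates latent TGF-beta and restrains angiogenesis through its receptors Cd36 and Cd47 (chr2:118111876-118127133). The log2 signal of Thbs1 was 13.49, 13.47 and 13.59 in ASC-Ns, 13.78, 13.34 and 13.29 in ASC-Ls, and 13.73, 13.50 and 13.76 in ASC-Is. The ASC-L arrays lay on both sides of the ASC-N arrays, and the groups overlapped in all 3 comparisons. The differences of Thbs1 were -0.05, 0.15 and -0.19 for ASC-Ls against ASC-Ns, ASC-Is against ASC-Ns and ASC-Ls against ASC-Is (standard error 0.15 each).

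Thbs2 encodes thrombospondin 2, which also restrains angiogenesis and is needed for normal collagen fibrils (chr17:14665500-14694262). The log2 signal of Thbs2 was 12.67, 12.90 and 12.57 in ASC-Ns, 12.17, 12.12 and 13.37 in ASC-Ls, and 11.82, 12.37 and 12.60 in ASC-Is. ASC-L 3 was the highest of all arrays, and the other ASC-L arrays lay below every ASC-N array. The differences in the same order were -0.16, -0.45 and 0.29 (standard error 0.33), and none was past the limits.

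Thbs3 encodes thrombospondin 3, a pentameric member known from cartilage and bone (chr3:89215180-89226841). The log2 signal of Thbs3 was 8.33, 8.08 and 7.19 in ASC-Ns, 7.49, 6.93 and 7.22 in ASC-Ls, and 7.60, 7.48 and 7.13 in ASC-Is. ASC-N 1 and ASC-N 2 were above all other arrays, and ASC-N 3 was within the range of both parous stages and 1.01 below the mean of the other ASC-N arrays. The means were 7.87 ± 0.60, 7.22 ± 0.28 and 7.40 ± 0.24 (SD, n = 3 each). The difference was -0.65 for ASC-L against ASC-N, -0.47 for ASC-I against ASC-N and -0.19 for ASC-L against ASC-I (standard error 0.29 each).

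ASC-N 3, where Thbs3 was low, was also the ASC-N array with the lowest mean of the macrophage markers (6.16, against 8.39 and 8.35). All 12 macrophage markers were lower in ASC-Ls than ASC-Ns (48.3% of all genes), of which 1, Csf1r, was past the limits (0.627% of all genes). In ASC-Is 10 of 12 were higher than in ASC-Ns, where 49.1% of all genes were lower. For ASC-L against ASC-I all 12 were lower, 9 did not overlap, and 5 (41.7%) were past the limits, namely Cybb, Lyz2, Adgre1, Itgam and Ptprc. Of all genes 48% were lower, 5.56% did not overlap and 0.482% were past the limits in this comparison. The part of macrophages in the values of Thbs3 and Tnc was not tested. The difference of Thbs3 for ASC-L against ASC-N was -0.99 without ASC-N 3 and -0.79 without ASC-L 1, both past the limits. It was no longer past them without ASC-N 1 or 2 (-0.42 and -0.54), ASC-L 2 or 3 (-0.51 and -0.65), or any 1 of the ASC-I arrays, which enter this difference through the shared estimate of spread only (-0.65 each). Nor was it without both ASC-L 2 and ASC-I 2 (-0.51), after quantile normalization (-0.60), and with only the 2 stages or without the genes of the lowest 25% of mean signal in the fit (-0.65 each). Without ASC-N 3 the difference for ASC-I against ASC-N was -0.80, and under array weights it was -0.74, both past the limits.

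Thbs4 encodes thrombospondin 4, known from tendon and muscle (chr13:92751586-92794818). Its log2 signal was 6.40, 5.17 and 5.58 in ASC-Ns, 5.33, 5.99 and 5.23 in ASC-Ls, and 5.39, 5.53 and 5.23 in ASC-Is. Only ASC-N 1 and ASC-L 2 were above the median of all probe sets of their array, and detection of Thbs4 was not tested. The groups overlapped, with differences of -0.20, -0.33 and 0.13 (standard error 0.31) in the order used for Thbs1. Among the thrombospondins the range over the 9 arrays was thus narrow for Thbs1, at 0.48, and wider for Thbs2 (1.56), Thbs3 (1.39) and Thbs4 (1.23).

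**Figure D2:**
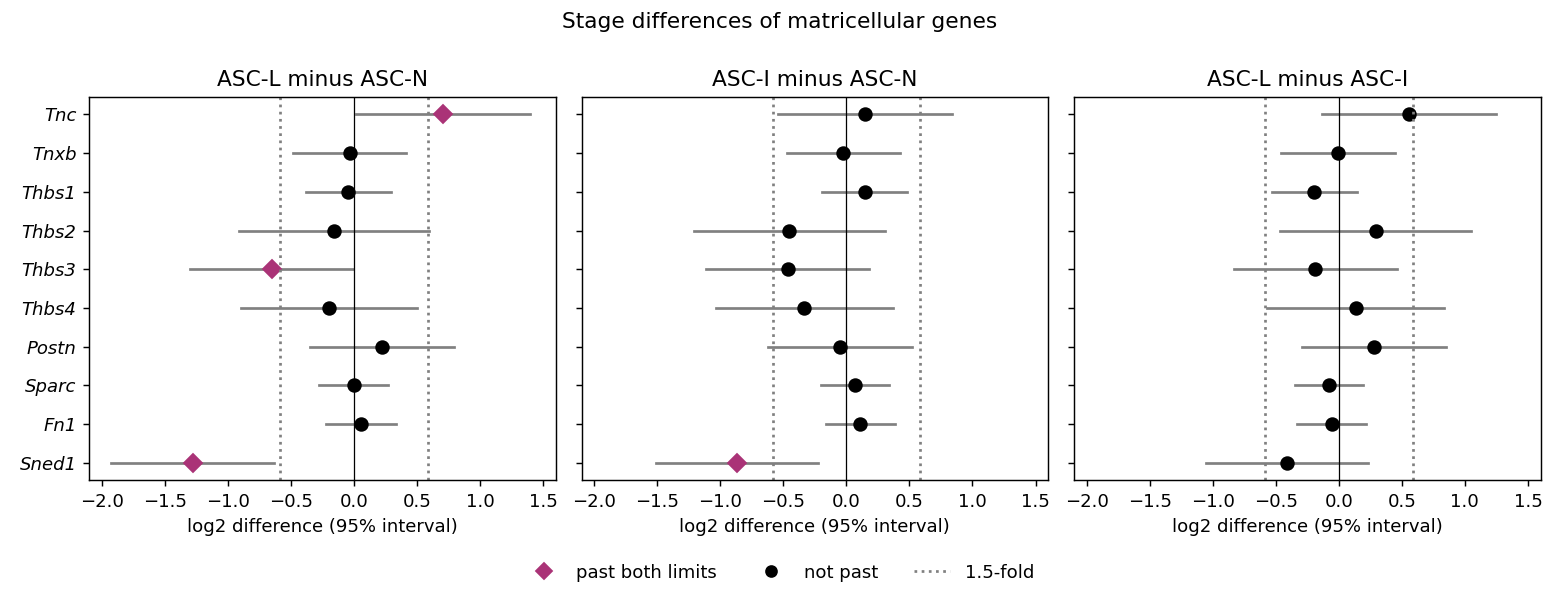
Log2 difference between stage means (horizontal axis, with the 95% interval of limma as a line) of each member in the 3 comparisons. Diamonds mark members past the limits and dotted lines a 1.5-fold change. Sned1 lies farthest from 0, at -1.28 and -0.87 against ASC-Ns, and the intervals of Tnc and Thbs3 for ASC-L against ASC-N end close to 0.

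Postn encodes periostin, which binds fibronectin and tenascin C and promotes the cross-linking of collagen (chr3:54359267-54391041). The log2 signal of Postn was 12.11, 12.05 and 11.62 in ASC-Ns, 11.76, 12.09 and 12.61 in ASC-Ls, and 11.75, 12.26 and 11.61 in ASC-Is. ASC-L 3 was the highest array, as it was for Thbs2, and the groups overlapped. The differences were 0.23, -0.05 and 0.28 (standard error 0.25).

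Sparc and Fn1 varied least among the 10 members. Sparc encodes a collagen-binding protein of bone and stroma that reduces cell adhesion (chr11:55394159-55420080). Its log2 signal was 13.17, 13.08 and 13.13 in ASC-Ns, 13.27, 12.99 and 13.11 in ASC-Ls, and 13.37, 13.11 and 13.11 in ASC-Is. Fn1 encodes fibronectin, whose fibrils cells assemble through the integrin of Itga5 and Itgb1 (chr1:71585473-71653280). Its log2 signal was 12.79, 12.88 and 12.58 in ASC-Ns, 12.83, 12.77 and 12.82 in ASC-Ls, and 13.03, 12.75 and 12.81 in ASC-Is. The range over the 9 arrays was 0.37 for Sparc and 0.44 for Fn1, against a median of 1.11 for the 10 members and of 0.583 for all genes. No difference between stage means exceeded 0.11 in these genes (standard error 0.12), and the 95% interval for ASC-L against ASC-N ran from -0.27 to 0.27 for Sparc and from -0.22 to 0.33 for Fn1.

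Sned1 encodes a matrix glycoprotein named after its Sushi, nidogen and EGF-like domains (chr1:93235796-93301065). The log2 signal of Sned1 was 8.12, 7.60 and 7.26 in ASC-Ns, 6.62, 6.38 and 6.15 in ASC-Ls, and 7.12, 6.23 and 7.04 in ASC-Is. The median of all genes was 6.239, 6.264 and 6.229 in the ASC-L arrays and 6.215 in ASC-I 2. Detection of Sned1 in these arrays was not tested, nor was the effect of background correction on its differences. The highest ASC-L array lay 0.64 below the lowest ASC-N array, and the highest ASC-I array lay 0.15 below it. The ASC-L and ASC-I arrays overlapped, since ASC-I 2 was the second lowest array of all while the other ASC-I arrays were above every ASC-L array. The means were 7.66 ± 0.43 in ASC-Ns, 6.38 ± 0.24 in ASC-Ls and 6.79 ± 0.49 in ASC-Is (SD, n = 3 each).

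The difference of Sned1 was -1.28 for ASC-L against ASC-N, with a 95% interval from -1.92 to -0.63, and -0.87 for ASC-I against ASC-N, with an interval from -1.51 to -0.22 (standard error 0.28 each). Both comparisons share the ASC-N arrays. For ASC-L against ASC-I the difference was -0.41, and arrays of the same replicate number differed by -0.49, 0.15 and -0.89. Differences between the stage means made up 72.4% of the variance of Sned1 over the 9 arrays, against 42.1% for Tnc and 40.7% for Thbs3. The median of this share was 17.7% for the 10 members and 15.9% for all genes, and that of the SD within stages was 0.377 and 0.196.

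The difference for ASC-L against ASC-N in Sned1 lay between -1.48 and -1.05 when any 1 array was left out. It was -1.28 without ASC-L 2 and ASC-I 2, the arrays of high epithelial markers. The difference for ASC-I against ASC-N was no longer past the limits without ASC-N 1, at -0.64, or without those 2 arrays together, at -0.59, whereas it was past them, also at -0.59, when ASC-I 2 alone was left out. For ASC-L against ASC-I the difference was past the limits without ASC-I 2 and without those 2 arrays together, at -0.69 each. Within ASC-Ns, Sned1 was lowest in replicate 3, the array of the lowest macrophage markers. In ASC-I 1, with the highest mean of those markers (9.11), Sned1 was 7.12. The part of macrophages in the values of Sned1 was not tested.

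**Figure D3:**
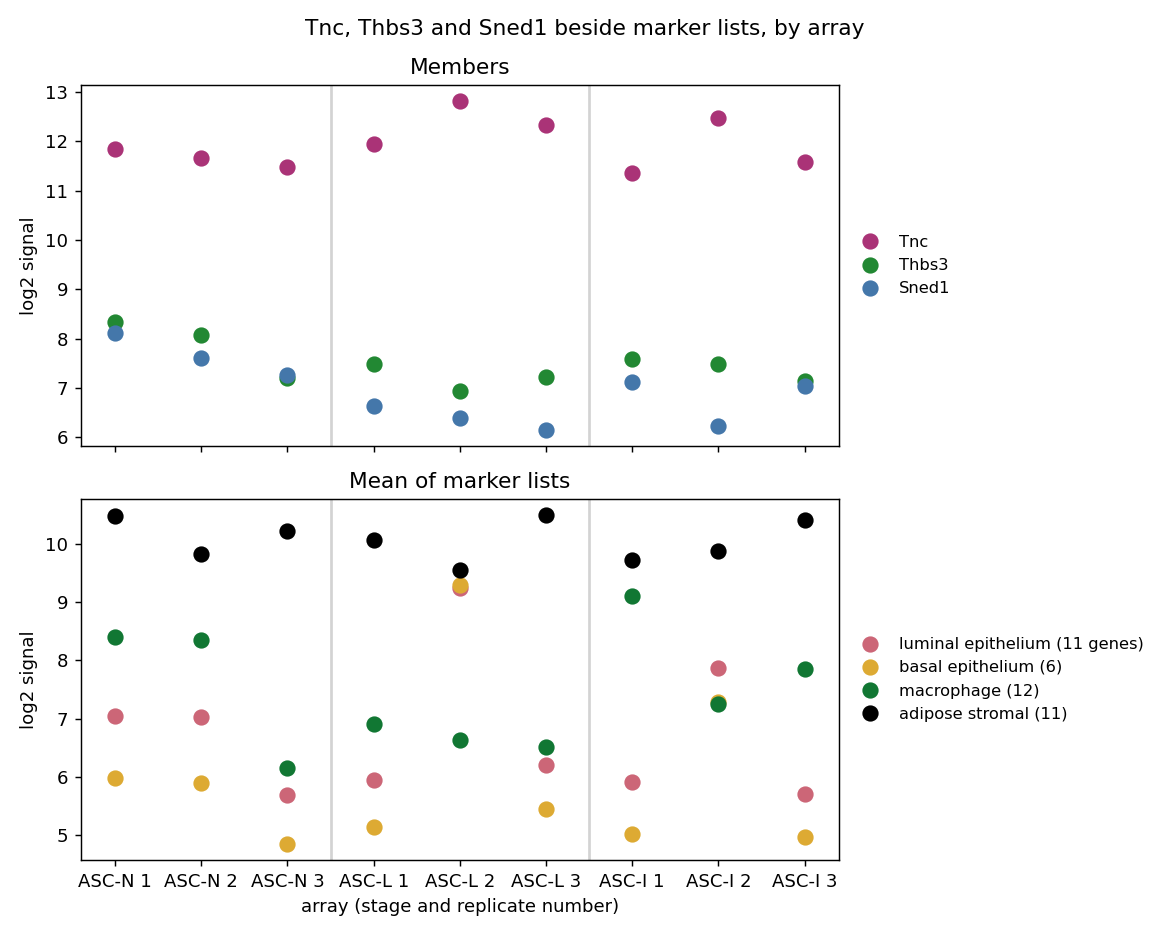
Log2 signal (vertical axis) of Tnc, Thbs3 and Sned1 in each of the 9 arrays above the mean log2 signal of the luminal, basal, macrophage and adipose stromal marker lists in the same arrays, with grey lines between the stages. The epithelial lists and Tnc are highest in ASC-L 2 (9.24, 9.28 and 12.81), and the mean of the adipose stromal list ranges from 9.54, in the same array, to 10.5.

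The genes nearest to these members in pattern were found by the root mean square difference over the 9 arrays, after each gene was centered on its own mean. For Sned1, whose own deviations from its mean had a root mean square of 0.627, they were Rgs18 (0.269), Tnmd (0.276) and Mir329 (0.291). Tnmd encodes tenomodulin, a membrane glycoprotein of tendon and adipose tissue, and its stage means were 6.31, 5.16 and 5.28 in ASC-Ns, ASC-Ls and ASC-Is. For Thbs3 (0.430) they were Cx3cr1 (0.128), Zranb3 (0.194) and Npl (0.206). Cx3cr1 encodes the fractalkine receptor of monocytes and macrophages, and it was 6.62, 6.74 and 5.83 in ASC-Ns, with the same low replicate 3 as Thbs3. It was 5.80, 5.56 and 5.74 in ASC-Ls and 6.09, 5.91 and 5.58 in ASC-Is. In ASC-I 1, where the mean of the macrophage markers was highest (9.11), Cx3cr1 was thus below ASC-N 1 and ASC-N 2. Zranb3 and Npl were also lowest among ASC-Ns in replicate 3 (6.59 and 6.21). For Tnc (0.466) they were Vsnl1 (0.103), Acsl4 (0.155) and Sytl2 (0.175), which like Tnc were higher in ASC-L 2 and ASC-I 2 than in the other arrays. Acsl4, a ligase that activates arachidonic acid, was 10.26 and 9.99 in these arrays. These likenesses describe the same 9 arrays and carry no test.

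Relatives of the members, such as Tnn, Tnr and Comp, the CCN family, fibulins, SMOC proteins and nidogens, were examined as a list, of which 34 genes were measured and Spp1 and Efemp2 were not analysed here. None of the 34 was past the limits in any comparison, and none had an adjusted p under 0.05 over all genes in limma. For ASC-L against ASC-N 21 of 34 relatives were lower, where 48.3% of all genes were lower, with a median difference of -0.13. For ASC-I against ASC-N 18 of 34 were lower (49.1% of all genes), with a median of -0.01, and for ASC-L against ASC-I 25 of 34 were lower (48% of all genes), with a median of -0.12. The medians of all genes were between 0.00 and 0.01.

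The 2 largest differences among the relatives were those of Efemp1 and Ccn3 in each comparison with ASC-Ns, and of Efemp1 and Smoc1 for ASC-L against ASC-I, all of which varied widely between arrays of a stage. Efemp1, a fibulin of basement membranes and elastic tissue, was 9.10, 8.90 and 10.53 in ASC-Ns, 9.27, 5.04 and 7.76 in ASC-Ls, and 9.15, 6.05 and 10.58 in ASC-Is. Its lowest values were in ASC-L 2 and ASC-I 2, and the difference of -2.16 for ASC-L against ASC-N had a standard error of 1.27 (adjusted p = 0.998 in limma). Ccn3, a CCN protein that binds integrins, was likewise lowest in those arrays (5.35 and 6.88), with a difference of -1.45 (standard error 1.01). The calcium-binding protein Smoc1 differed by -0.92 for ASC-L against ASC-I (standard error 0.57). With the replicate number as a block, although no pairing is stated, it was the only relative past the limits in this comparison, at an unchanged difference and a standard error of 0.37.

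Comp and Tnn, the relatives closest to the pentameric thrombospondins and to the tenascins, had stage means from 5.25 to 5.54 and from 5.59 to 5.76. Both lay below the median of all probe sets in every array, and their detection was not tested. The matricellular growth regulators Ccn1 and Ccn2 had stage means from 12.36 to 12.55 and from 12.21 to 12.61. Sparcl1, the relative of Sparc that endothelium also makes, was 9.47, 6.95 and 5.23 in ASC-Ns, 5.53, 9.86 and 6.67 in ASC-Ls, and 5.27, 8.43 and 5.91 in ASC-Is. Its 3 highest arrays were those with the highest mean of 6 endothelial markers (7.16 in ASC-N 1, 7.43 in ASC-L 2 and 6.66 in ASC-I 2, and at most 5.44 elsewhere), and the part of endothelium in it was not tested. These 5 genes were named after their values were seen.

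Of 31 receptors that bind the members, none was past the limits in any comparison. For ASC-L against ASC-N 18 of 31 were higher and 13 lower, where 48.3% of all genes were lower, with a median of 0.09. The medians were 0.04 for ASC-I against ASC-N and 0.10 for ASC-L against ASC-I, and the adjusted p of each receptor was at least 0.998 in limma. Itga3, a subunit of integrins that bind laminin and thrombospondin 1, was 6.61, 6.33 and 5.39 in ASC-Ns, 5.85, 9.48 and 6.04 in ASC-Ls, and 5.41, 7.48 and 6.14 in ASC-Is. Its difference of 1.02 for ASC-L against ASC-N (standard error 0.93) rested on ASC-L 2, and the other ASC-L arrays lay within the range of ASC-Ns. Itgb3, the beta subunit of the vitronectin receptor, differed by 0.75 (standard error 0.58), with 9.39 in ASC-L 2, 8.77 in ASC-L 3 and 8.76 in ASC-I 2. Itgb8 differed by -0.42 and Cd36, the thrombospondin 1 receptor that also takes up fatty acids, by 0.40 for ASC-I against ASC-N (standard errors 0.57 and 1.06). Cd36 was highest in ASC-I 2, at 9.20, and lowest in ASC-L 1, at 5.07.

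The fibronectin receptor subunits, given here as the partners of Fn1, also stayed within the limits. Itga5 had stage means of 10.77 ± 0.10, 11.13 ± 0.57 and 10.93 ± 0.60, and Itgb1 of 12.18 ± 0.03, 12.34 ± 0.15 and 12.25 ± 0.10 (SD, n = 3 each) in ASC-Ns, ASC-Ls and ASC-Is. Cd47, the other receptor of thrombospondin 1, had means of 10.22 ± 0.28, 9.96 ± 0.64 and 10.24 ± 0.39. These 3 receptors were named after their values were seen.

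Of 30 measured genes of matrix assembly and turnover, 1 was past the limits (3.33%), and only for ASC-L against ASC-N, where 0.627% of all genes were. This was Adamts1, a metalloproteinase that cleaves proteoglycans and thrombospondins. Its log2 signal was 10.16, 9.97 and 10.33 in ASC-Ns, 10.01, 8.96 and 9.25 in ASC-Ls, and 10.35, 9.44 and 10.18 in ASC-Is. ASC-L 2 and ASC-L 3 were below all other arrays, while ASC-L 1 was within the range of ASC-Ns. The difference of Adamts1 was -0.75 (standard error 0.30, adjusted p = 0.998 in limma). It was no longer past the limits without ASC-N 1 or 3 (-0.74 and -0.66), without ASC-L 2 or 3 (-0.52 and -0.67), without both ASC-L 2 and ASC-I 2 (-0.52), or after quantile normalization (-0.73).

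The 2 largest other differences of this list in each comparison had large standard errors. Mmp9, a gelatinase that macrophages and neutrophils also make, differed by 1.34 for ASC-L against ASC-N and by 1.02 for ASC-I against ASC-N (standard error 1.05), with 10.96 in ASC-L 2. The aggrecanase Adamts5 differed by -1.29 for ASC-L against ASC-N and by -1.33 for ASC-L against ASC-I (standard error 0.85), with its lowest values in ASC-L 2 (7.80) and ASC-I 2 (9.26). With the replicate block Adamts5 was past the limits in both of these comparisons, at a standard error of 0.47. Mmp3, known as stromelysin, differed by 0.88 for ASC-I against ASC-N (standard error 1.13), and the collagenase Mmp13 by 0.87 for ASC-L against ASC-I and by 1.02 for ASC-L against ASC-N (standard error 1.26). The medians of the list were 0.04, 0.03 and 0.01 in the 3 comparisons.

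**Figure D4:**
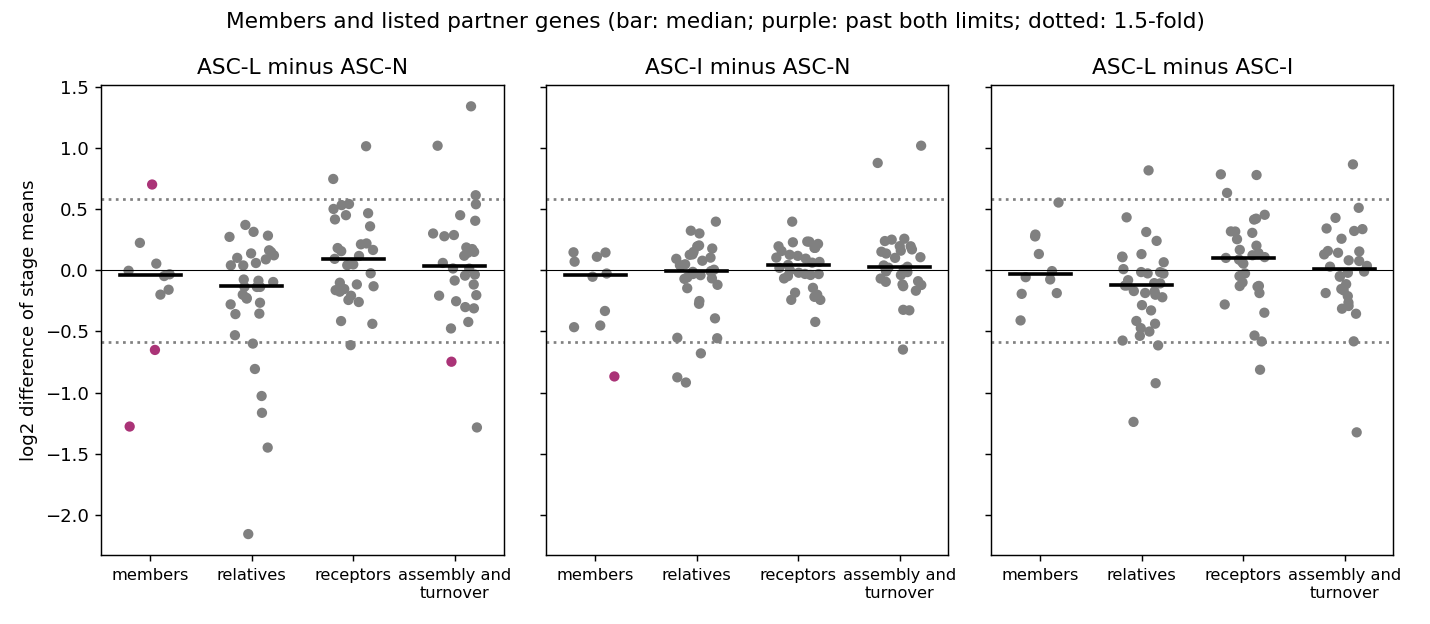
Log2 difference of stage means (vertical axis) of each member and each gene of the 3 lists, relatives (34 genes), receptors (31) and assembly and turnover (30), in the 3 comparisons, with black bars for medians and dotted lines at 1.5-fold. Purple points are past the limits, which are Sned1, Tnc, Thbs3 and Adamts1 for ASC-L against ASC-N and Sned1 for ASC-I against ASC-N.

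Deviations of single arrays touched several members at once. In ASC-L 2, 3 of 10 members differed by at least 1.5-fold from the mean of the other ASC-L arrays, as did 15.9% of all genes. In ASC-I 2 and in ASC-N 3 it was 2 of 10 members each, with 11.9% and 11.1% of all genes. Thbs2 and Postn were both highest in ASC-L 3, where the mean of the adipose stromal markers was 10.49, beside 10.48 in ASC-N 1. The order of the stage means was ASC-N, ASC-I, ASC-L from high to low for Sned1 and Thbs3, and ASC-L, ASC-I, ASC-N for Tnc. Of these neighbors in the order, the arrays of ASC-Is and ASC-Ns did not overlap for Sned1, and all other neighbors overlapped.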

How the data were processed

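Total RNA of 9 preparations of mammary adipose stromal cells, 3 per stage, was measured on Affymetrix Mouse Gene 1.0 ST arrays. The deposited values are log2 signals per probe set, which the authors had normalized between arrays. The paper's methods name robust multi-array average for this step, and the submitters' processing notes name GCRMA and limma, without versions. These methods differ in background correction, which acts mostly on dim probe sets, and which of them made the values is not settled. The paper names an RNeasy kit and the labels Trizol. Its filter on little variation is not seen in the values, in which 23 probe sets have SDs below 0.05, and its detection filter was not used here. Cell files and scan dates were not used here, and the number of arrays limits the precision.

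Probe sets were named by the platform annotation. Of 28348 probe sets 21762 carried 1 symbol, 1621 several and 4965 none, and those with several or none were left out. Entrez identifiers of 21671 matched the RefSeq table of GRCm38.p6, in which 0 symbols differed. Log2 values were averaged over the probe sets of a gene, which gave 19930 genes. The model, with 1 mean per stage and moderated by empirical Bayes at a prior of 2.91 degrees of freedom, was fitted to the 9 arrays in limma 3.58.1 (R 4.3.3). A gene past the limits had p under 0.05 before adjustment and a change of 1.5-fold or more, with Benjamini-Hochberg adjustment over all genes. No p is given for members. The fit was tested on simulated data. P-values measure the spread between preparations of unknown mice.

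The members and the lists of relatives, receptors, assembly and turnover genes and markers were chosen with earlier results of these data known. Every member was named, and from each list the genes past the limits and up to 2 others of largest change per comparison. For members whose stage means span at least 1.5-fold the 3 genes of nearest pattern were named, and genes named otherwise are marked in the text. Promoter windows came from RefSeq, taking of several the one farthest upstream.

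Replicate numbers are shared between stages in the labels, with no pairing stated. Deviations from the stage means correlated across genes for every ASC-L array and its ASC-I counterpart of the same number (r = 0.47, 0.73 and 0.46). This held for some numbers only when ASC-N was set against ASC-L (r = -0.08, 0.40 and 0.45) and against ASC-I (r = 0.07, 0.43 and 0.50). These correlations overlap between the comparisons and come from the same arrays, so they do not settle a pairing. The replicate block is therefore given as an alternative setting only.

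Alternatives were quantile normalization, array weights, a robust prior with an intensity trend, fits of only the stages compared, removal of genes of the lowest 25% by mean signal or with SDs below 0.05, single probe sets, the replicate block, leaving out both ASC-L 2 and ASC-I 2, and leaving out each array in turn.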

Additional observations from a re-analysis of the deposited data

How the results depend on the processing

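The 30 member differences kept their sign in 497 of 540 recomputations under 18 alternative settings, and the 4 differences past the limits did in all 72. Many of these recomputations could not come out otherwise. Changes to the prior, to the genes fitted or to the arrays of the third stage leave a difference between 2 stages as it was. Leaving out 1 of 3 arrays cannot move it by more than the SD within stages. The moves of less than that SD, in all 540, are therefore no sign of stability. The members past the limits numbered 3 for ASC-L against ASC-N, and 1 without the lowest 25% of mean signal and without the 2 arrays of high epithelial markers (ASC-L 2 and ASC-I 2), with a range of 1 to 3 when any 1 array was left out. For ASC-I against ASC-N they numbered 1, with 2 under array weights, 0 without those 2 arrays and 0 to 2 when any 1 array was left out. For ASC-L against ASC-I they numbered 0, with 2 without those 2 arrays and 0 to 2 when any 1 array was left out. Of the relatives, 0 were past the limits for ASC-L against ASC-N with all arrays, and 1 with only the stages compared (Npnt), 1 under array weights (Tgfbi) and 0 to 3 when any 1 array was left out. For ASC-I against ASC-N 1 relative passed without those 2 arrays and 0 to 1 when any 1 array was left out, and for ASC-L against ASC-I 1 and 0 to 2. Of the receptors, for ASC-L against ASC-N 1 passed under array weights (Itga4), 3 without those 2 arrays (Itga4, Itgb6 and Itgb8) and 0 to 2 when any 1 array was left out, with 0 to 1 for ASC-I against ASC-N and 0 to 2 for ASC-L against ASC-I. Of the assembly and turnover genes, for ASC-L against ASC-N 0 passed after quantile normalization, 0 without those 2 arrays and 0 to 5 when any 1 array was left out. For ASC-L against ASC-I 2 passed without those 2 arrays and 0 to 4 when any 1 array was left out.

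With the replicate number as a block, 5 relatives (Efemp1, Ccn3, Ccn5, Npnt and Tgfbi) and 2 assembly and turnover genes (Adamts1 and Adamts5) were past the limits for ASC-L against ASC-N. For ASC-L against ASC-I 1 relative and 1 assembly and turnover gene were. No pairing of the replicate numbers is stated for any of the stages. The block changed no other count of members or lists. Over all genes, 125, 50 and 96 were past the limits for ASC-L against ASC-N, then ASC-I against ASC-N, then ASC-L against ASC-I, and 295, 90 and 207 with the block, 311, 187 and 142 under array weights, and 154, 144 and 194 without the 2 arrays. Leaving out any 1 array gave 80 to 404, 32 to 221 and 36 to 331. The causes of these changes were not tested.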
